A study of Homo sapiens with 11 samples.

Results

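Cardioids, hollow heart organoids, that had been given PD173074 were compared with heart cells grown as a flat (2D) culture. PD173074 is a small molecule that blocks the kinase activity of the FGF receptors. Members were taken by the treatment label, 'with PD173074' against '2D culture', which gave 6 of the 11 libraries of the series. They held 12780 of its 16314 cells, 4597 with PD173074 and 8183 from the 2D culture. Genes were compared over all of these cells and over those in which *TNNT2* and *MYH6*, a troponin and a myosin of heart muscle, made up at least 0.15% of a cell's transcript counts (UMIs, each 1 captured molecule).

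The study made chambered cardioids from H9, a human embryonic stem cell line. All 3 of its groups, 2D culture, cardioids with PD173074 and cardioids without it, were H9 cells and were sampled on day 42.5 for droplet sequencing of transcript 3′ ends. No edited allele is labelled in any group. The labels give neither the dose nor the days of PD173074, and no group of 2D culture with the inhibitor was analysed here. The groups compared therefore differed in both the form of culture and the inhibitor, and these cannot be told apart. Cardioids without PD173074 enter no ratio below, but their level is also given for some genes.

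FGF ligands bind receptor tyrosine kinases at the cell surface, and the signal runs through RAS to the kinase ERK. ERK switches on its own brakes, among them the phosphatase gene *DUSP6* and the Sprouty and SPRED inhibitors, and the ETS factors *ETV1*, *ETV4* and *ETV5*, so levels of these genes are commonly read as a measure of the signal. In the embryonic heart FGF signals act on progenitor growth and, in zebrafish, on keeping ventricular cells distinct from atrial ones. Atrial muscle is marked by *NR2F2*, *NR2F1*, *NPPA* and *MYL7*, ventricular muscle by *MYL2*, *IRX4* and *MYH7*, and the sinus node, the natural pacemaker, by *SHOX2*, *ISL1* and *HCN4*.

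The libraries of a group shared almost all of their cell barcodes, from 99.5% to 99.9% of the shorter list within these 2 groups, against at most 0.737% between any 2 groups. Their gene counts differed by less than sampling noise (chi-square per degree of freedom from 0.542 to 0.852). They were therefore averaged as repeat runs, so each group is 1 sample, nothing could be tested, and no difference has a replicate check. A run of the 2D culture held 43908067 to 46304366 UMIs and a run with PD173074 36127841 to 37765195. Among genes named here at 20 CPM (a gene's UMIs scaled to the same total in each sample) or more, the highest run of these groups was at most 1.12 times the lowest. In the cardioids without PD173074, 1 of the 5 runs was shallower, at 12266166 UMIs, and chi-square per degree of freedom between runs reached 7.08, so levels given for that group vary more between runs. Ratios are log2 of CPM with PD173074 over CPM in 2D culture, and the exact (Clopper-Pearson) 95% intervals cover counting error only. In pairs of levels, the value with PD173074 comes first.

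The share of *TNNT2*+*MYH6* cells was lower with PD173074, and the content of these 2 transcripts per cell was more widely spread. With PD173074, 3365 of 4597 cells (73.2%, 95% interval 71.9% to 74.5%) passed 0.15%, against 7067 of 8183 (86.4%, 85.6% to 87.1%) in the 2D culture. At 0.30% the order of the samples turned, with 63.7% against 61.2%. Over all cells the median content was 0.450% of UMIs with PD173074 and 0.343% in 2D culture. Close to the cut lay 97 cells between 0.10% and 0.15% and 124 between 0.15% and 0.20% with PD173074, and 286 and 433 in 2D culture. Cells above the cut had a median of 6064 UMIs with PD173074 and 4180 in 2D culture, and a median of 4.13% and 5.11% of UMIs in mitochondrially encoded genes.

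**Figure D1:**
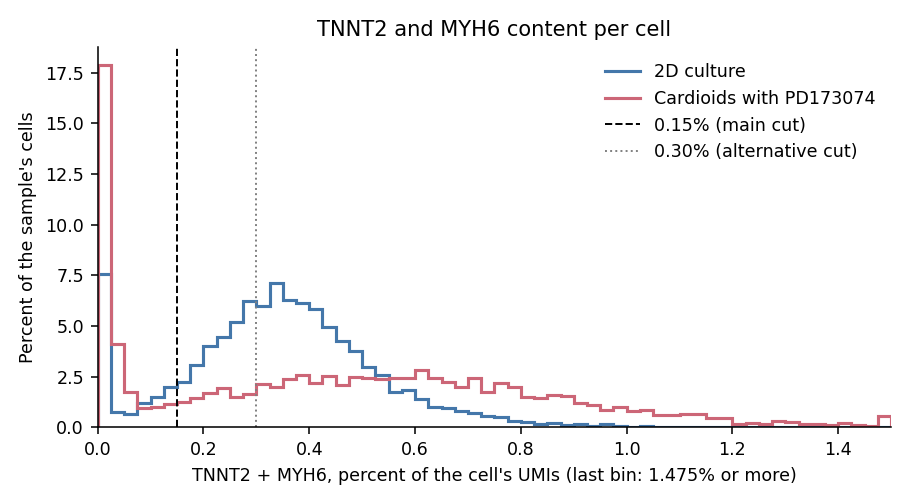
Content of TNNT2 and MYH6 transcripts per cell (horizontal axis, percent of the cell's UMIs) against the percent of the sample's cells per bin (vertical axis), for the 2D culture and the cardioids with PD173074. Both samples have a tall bin near 0, with 7.55% of cells in 2D culture and 17.9% with PD173074. Above it, the 2D culture has 1 broad peak around its median of 0.343%, while the cardioids have a wide spread above the cut of 0.15%.

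The cells above the cut carried the heart muscle programme in both samples. All 7 of the cardiomyocyte markers checked, *TNNT2*, *MYH6*, *ACTN2*, *TTN*, *TNNI1*, *NKX2-5* and *RYR2*, were measured, and they summed to 15509.5 against 12633 CPM. Markers of pluripotent cells summed to 0.358 against 0.371 CPM and markers of blood to 0.386 against 0.853 CPM, both near 0. Neural markers summed to 5.45 against 1.1 CPM. Of the markers of other cells, smooth muscle markers summed to 2803 against 1374 CPM and fibroblast or stromal markers to 745 against 579.9 CPM. Epithelial markers summed to 206 against 122 CPM, but their median log2 ratio of 0.57 turned to -0.72 with cells rich in collagen or epithelial transcripts left out. Endoderm markers summed to 13.4 against 51.9 CPM and endothelial markers to 61 against 158 CPM. The levels of *TNNT2* (2770.1 against 2085 CPM) and *MYH6* (3091 against 1646 CPM) in these cells are partly set by the cut that used them.

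In *TNNT2*+*MYH6* cells the cardioids with PD173074 held more of the atrial and pacemaker genes and fewer transcripts of ventricular, FGF feedback and glycolysis genes. The call rule asked for 20 CPM or more in whichever sample was higher and for a whole interval beyond 2-fold. Of 8113 genes at that level, 398 (4.91%) were called higher with PD173074 and 210 (2.59%) lower. Genes named below as highest or lowest leave out clone-named and LINC transcripts, ribosomal protein genes and genes encoded in mitochondria. Among those furthest apart were regulators of chamber and pacemaker identity, secreted signalling molecules and neurotransmitter receptor subunits.

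**Figure D2:**
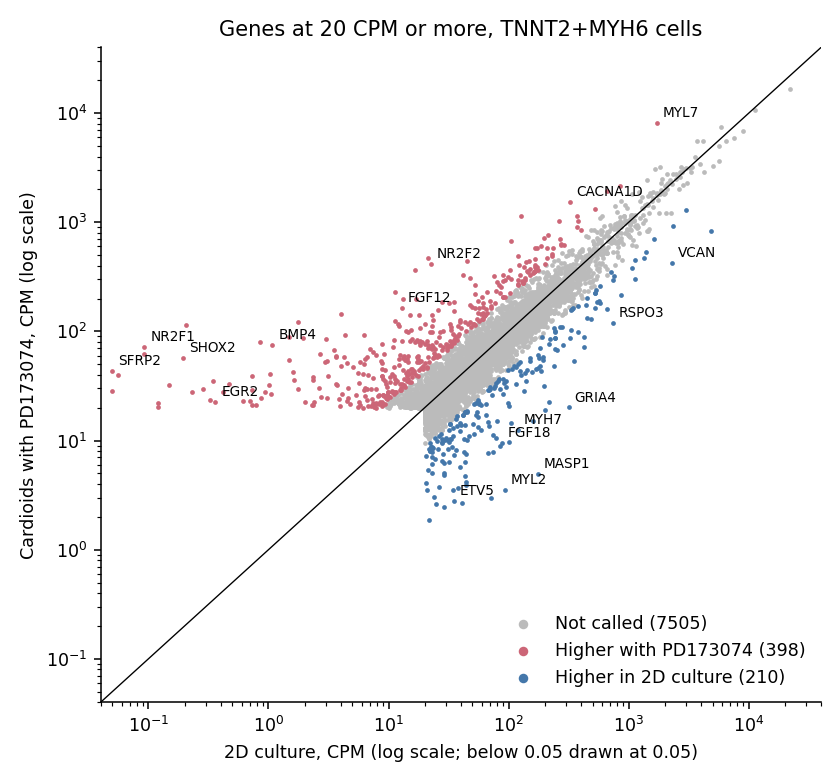
Level of each gene in TNNT2+MYH6 cells of the 2D culture (horizontal axis, CPM, log scale) against the cardioids with PD173074 (vertical axis, CPM, log scale), with 1 point per gene and the line of equal levels. NR2F1, SHOX2 and SFRP2 lie far to the left, near 0 in 2D culture, and MASP1, MYL2 and GRIA4 lie far below the line.

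Among the 10 highest genes, *NR2F1*, a nuclear receptor of atrial muscle, had 72.4 against 0.0928 CPM. Its log2 ratio was 9.61 (95% interval 8.13 to 11.73), from a mean of 3.33 UMIs in all 2D muscle cells. *SHOX2*, a sinus node transcription factor, had 57.3 against 0.195 CPM (log2 ratio 8.20, 95% interval 7.15 to 9.52). Both were therefore close to absent in the 2D culture, and cardioids without PD173074 held 7.59 CPM of *NR2F1* and 7.51 CPM of *SHOX2*. *ALDH1A1*, which makes retinoic acid from retinaldehyde, had 62.4 against 0.0928 CPM (log2 ratio 9.39, 95% interval 7.92 to 11.52). *NR2F1-AS1*, an antisense RNA beside *NR2F1*, had 28.1 against 0.232 CPM, and the sources used here do not say whether counting used strand. *ZNF536*, a zinc finger factor, had 22.1 against 0.121 CPM, *CDH20*, a cadherin, 29.9 against 0.288 CPM, and *GABRG3*, a GABA receptor subunit, 35.2 against 0.343 CPM.

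The remaining 3 of the 10 highest were far more abundant in the cells under the cut of the same cardioids. *SFRP2*, a secreted Wnt antagonist, had 43.4 CPM in *TNNT2*+*MYH6* cells with PD173074 and 0 UMIs in 2D culture. At a floor of 3 counts over the sample its log2 ratio was 9.02. Its level in the cells under the cut was 1043 CPM, so the muscle cells held 4.16% of it. *GABRP*, another GABA receptor subunit, had 40 against 0.0557 CPM (log2 ratio 9.49, 95% interval 7.63 to 12.54) and stood at 5.69% of its level under the cut. *TCIM* had 28.3 against 0.0186 CPM (log2 ratio 10.57, 95% interval 7.67 to 18.19) and stood at 4.35%. Of the called genes, 15 of the 398 higher and 3 of the 210 lower ones had at least 5 times their level in the cells under the cut of the same sample, and the part of free RNA or mixed droplets in them was not tested. With PD173074 *NR2F1* and *SHOX2* were higher in the muscle cells than under the cut, at 72.4 and 5.33 CPM and at 57.3 and 21.5 CPM, while *ALDH1A1* had 62.4 and 80.8 CPM.

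The lowest genes were led by *MASP1*, a complement protease placed here in the ventricular list, with 4.96 against 176 CPM (log2 ratio -5.15, 95% interval -5.42 to -4.89). *MYL2*, a regulatory light chain of ventricular myosin, had 3.54 against 92.4 CPM (log2 ratio -4.70, 95% interval -5.03 to -4.39). *GRIA4*, a glutamate receptor subunit, had 20.1 against 315 CPM. These 3 were between 15.7 and 35.5 times lower with PD173074. *FABP7*, a fatty acid binding protein, had 2.67 against 40.9 CPM, *ETV5* 2.8 against 35 CPM, *WNT2*, a Wnt ligand, 1.86 against 21.8 CPM, and *NEFM*, a neurofilament, 3.89 against 44.4 CPM. *MN1* had 2.47 against 28.9 CPM and *JCAD*, a junction protein, 15 against 161 CPM. In cardioids without PD173074, *MASP1* stood at 153, *JCAD* at 183 and *NEFM* at 75.6 CPM, each nearer the 2D culture than the cardioids with the inhibitor. *MYL2* at 35.8, *FABP7* at 16, *ETV5* at 16.9 and *WNT2* at 9.5 CPM lay between the samples compared. They were nearer the cardioids with the inhibitor in CPM, but nearer the 2D culture on the log2 scale.

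Within gene lists, a member counted as measured at 10 CPM in either sample, and as higher or lower when its whole interval lay beyond 1.5-fold. Over all 10683 genes at that level in *TNNT2*+*MYH6* cells, 8.76% were higher with PD173074 and 6.36% lower, and their median log2 ratio was -0.01. Those shares are the background for each count below. The lists were chosen with earlier results of these data known, so the counts describe their members and test nothing. Some genes, such as *MYL2*, *MYH7*, *FHL2* and *ENO3*, stand in more than 1 list.

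**Figure D3:**
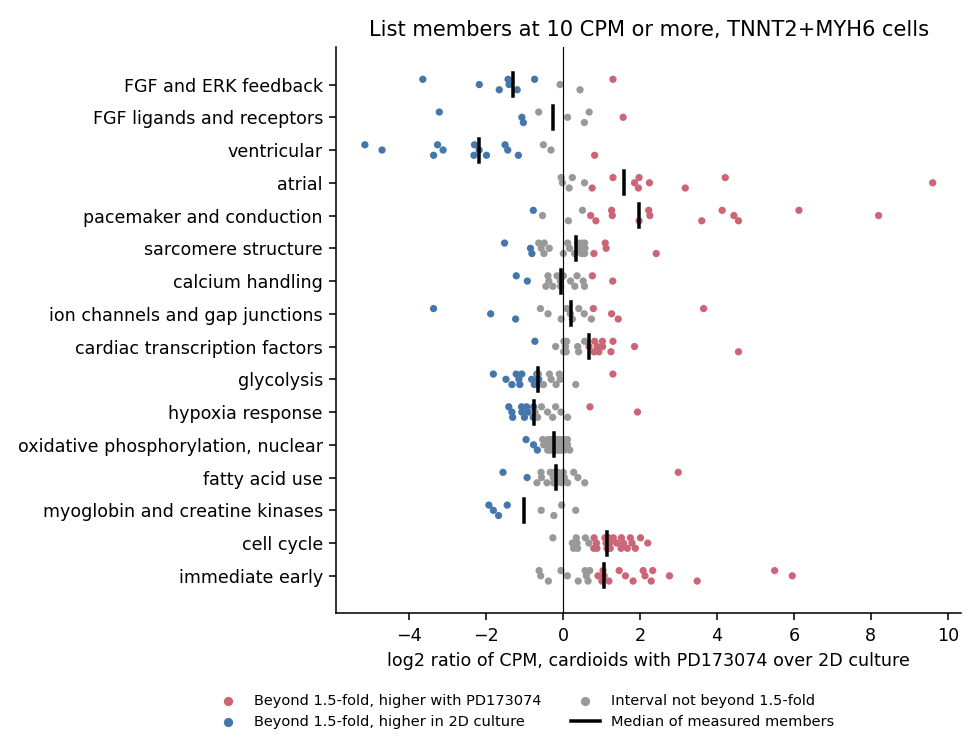
log2 ratio of CPM in TNNT2+MYH6 cells, cardioids with PD173074 over 2D culture (horizontal axis), for each member at 10 CPM or more of 16 gene lists (vertical axis), with a bar at the list's median. The ventricular and FGF feedback members lie mostly left of 0 (medians -2.18 and -1.30), and the pacemaker, atrial and cell cycle members mostly right of it (medians 1.98, 1.58 and 1.15).

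Genes of the FGF and ERK feedback list, brakes and others such as the ETS factors, were mostly lower with PD173074. Of 10 measured of 18, 7 were lower and 1 higher, with a median log2 ratio of -1.30. *DUSP6*, the phosphatase that removes ERK's activating phosphates, had 11 against 34.6 CPM, with 21.2 CPM in cardioids without PD173074. Its log2 ratio was -1.66 (95% interval -1.85 to -1.46). *ETV5*, an ETS factor, stood furthest apart, at -3.64 (95% interval -4.02 to -3.29) on the log2 scale, and its relative *ETV1* had 56.9 against 150.4 CPM. *SPRED2* and *SPRED1*, inhibitors of RAS signalling, had 10.1 against 45.4 CPM and 36.6 against 83.5 CPM. *PHLDA1* had 5.97 against 16.1 CPM, and *CCND1*, a cyclin of the entry into the cell cycle, 32.2 against 53.7 CPM.

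The list was not uniform. *DUSP5*, an ERK phosphatase of the nucleus, was higher, with 68 against 27.7 CPM (log2 ratio 1.30, 95% interval 1.18 to 1.41). *SPRY2*, a Sprouty inhibitor, had 38.9 against 41 CPM, a log2 ratio of -0.08 (95% interval -0.20 to 0.04, which spans equality), and *EPHA4*, an ephrin receptor, had 229 against 168 CPM, not beyond 1.5-fold. The other 8 members were under 10 CPM in both samples, among them *SPRY4* (1.97 against 4.65 CPM) and *ETV4* (0.358 against 0.714 CPM). Summed, all 18 members held 507 against 677 CPM and 935 CPM in cardioids without PD173074. *EPHA4* alone held 513 of the 935 CPM, and 229 and 168 CPM in the samples compared. In cells under the cut with collagen genes at 0.5% or more of UMIs, called collagen-rich, *ETV5* had 11.3 against 34.2 CPM and *DUSP6* 5.87 against 11 CPM, both lower. Other members stood the other way there, with *ETV1* at 196 against 71.4 CPM, *SPRED1* at 109 against 68.6 CPM and *SPRY2* at 87.4 against 47.3 CPM. Over all cells under the cut the list held 2 higher and 2 lower of 13 measured, with a median log2 ratio of -0.14, so the lower levels of the muscle cells were not seen there as a list.

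Of the FGF ligands and receptors, 8 of 16 were measured, 3 lower and 1 higher. The median of -0.26 became 0.11 when mitochondrially encoded and ribosomal protein genes were left out of the CPM, so the list as a whole had no stable direction. Among the ligands, *FGF18* had 9.44 against 87.7 CPM (log2 ratio -3.22, 95% interval -3.42 to -3.02), *FGF9* 11.6 against 24.4 CPM and *FGF7* 9.13 against 18.6 CPM, all lower with PD173074. *FGF10* had 18.9 against 11.8 CPM and *FGF2* 14.4 against 9.82 CPM, and neither interval lay beyond 1.5-fold. Among the receptors, *FGFR2* was higher, with 112 against 37.8 CPM (log2 ratio 1.56, 95% interval 1.47 to 1.66), while *FGFR1* had 47 against 43.3 CPM and *FGFR3* and *FGFR4* were under 2 CPM in both samples.

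The ventricular genes were lower with PD173074 nearly throughout. Of 15 measured of 18, 12 were lower, *MASP1* among them, and 1 higher, with a median log2 ratio of -2.18. *MYH7*, the slow myosin heavy chain of ventricular muscle, had 12.5 against 119.7 CPM (log2 ratio -3.26, 95% interval -3.43 to -3.09), and *MYL3*, a ventricular light chain, 35 against 139 CPM. The Iroquois factors, which pattern the ventricle, were lower as a set: *IRX3* had 7.72 against 67 CPM, *IRX4* 14.8 against 67.2 CPM, *IRX2* 6.42 against 31.6 CPM and *IRX5* 4.08 against 20.3 CPM. *KCNJ2*, which carries the inward rectifier current that holds the resting potential, had 3.67 against 37.8 CPM. *FHL2*, *LBH* and *PRDM16* had 469.8 against 1334, 239 against 535 and 33.8 against 91.4 CPM. *HAND1*, a factor of the early left ventricle, was the member that was higher, at 46.2 against 26.1 CPM. *HSPB7* and *NAV1* had intervals not beyond 1.5-fold, and *HEY2*, *IRX1* and *GJA1* were under 10 CPM.

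*MYL2* and *MYH7* RNA came from few cells. After thinning each cell to 2000 UMIs, 5.18% (4.65% to 5.74%) of *TNNT2*+*MYH6* cells of the 2D culture and 0.527% (0.295% to 0.836%) with PD173074 had a *MYL2* UMI, with unthinned shares of 8.49% and 1.29%. In collagen-rich cells, which should lack it, the thinned shares were 0.898% and 0.106%, at median depths of 9621 and 8760 UMIs against 4175 and 6062 in the muscle cells. The 5% of muscle cells richest in *MYL2* held 91.6% of its UMIs in 2D culture, and for *MYH7* they held 87.8%. *MASP1* was spread more widely, with 28.7% of the 2D muscle cells and 0.774% of those with PD173074 positive after thinning (unthinned 50% and 2.11%), and 22.5% of its UMIs in the richest 5% in 2D culture. Thinning left out 552 muscle cells of the 2D culture and 263 with PD173074 that were shallower than 2000 UMIs.

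Atrial genes were higher with PD173074. Of 14 measured of 18, 9 were higher and 0 lower, with a median log2 ratio of 1.58. *NR2F2*, the nuclear receptor COUP-TFII that sets atrial identity, had 419 against 22.5 CPM, with 86.3 CPM in cardioids without PD173074. Its log2 ratio was 4.22 (95% interval 4.11 to 4.32). *NPPA*, the atrial natriuretic peptide, had 111 against 12.3 CPM (log2 ratio 3.18, 95% interval 3.03 to 3.33). *PAM*, an enzyme that amidates peptides and is abundant in atrial granules, had 1024 against 263 CPM. *TBX5*, a T-box factor, had 297 against 121 CPM, *VSNL1*, a calcium sensor, 55.8 against 14.2 CPM and *CACNA2D2*, a calcium channel subunit, 20.3 against 5.6 CPM. *MYL4*, the atrial essential light chain, had 2420.1 against 1433 CPM. The atrial potassium channel genes *KCNJ3* (97.4 against 82.4 CPM) and *KCNJ5* (23.6 against 24.4 CPM), with *SLN*, *STARD10* and *ROR2*, had intervals not beyond 1.5-fold, so 5 of the 14 measured members did not pass. *GJA5*, *MYBPHL* and *KCNA5* were under 10 CPM.

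*MYL7*, the atrial regulatory light chain, had 8164 against 1721 CPM and 2736 CPM in cardioids without PD173074 (log2 ratio 2.25, 95% interval 2.23 to 2.26). Its RNA was found in 96.6% (96.0% to 97.3%) of thinned muscle cells with PD173074 and 67.8% (66.7% to 69.0%) in 2D culture, and in 28.8% and 15.3% of collagen-rich cells, which should lack it. Unthinned, the muscle shares were 99.2% and 81.8%. The promoter of *MYL7* is shown because it holds a CArG box, the site read by serum response factor in many muscle genes. The stretch is the 120 bases before the start site in RefSeq (GRCh38.p14, chr7:44141333-44141452, minus strand), read 5′ to 3′ with the CArG box in capitals.
MYL7: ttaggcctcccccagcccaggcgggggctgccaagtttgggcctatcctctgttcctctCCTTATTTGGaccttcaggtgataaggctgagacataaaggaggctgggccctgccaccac
The pattern searched for, though not each match to it, is the same on both strands. It was searched in windows from 250 bases before to 50 bases after each start. It was found in 351 of 27305 RefSeq promoters (1.29%) and in 4 of the 19 matched sarcomere genes of 26 listed. A match is a description of the sequence only.

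At thinned depth *NR2F2* was detected in 48.8% (47.0% to 50.5%) of muscle cells with PD173074 and 4.38% (3.89% to 4.90%) in 2D culture. The collagen-rich cells stood at 28.7% and 4.21%, and these cells may express the gene themselves. Unthinned, the muscle shares were 71% and 9.98% for *NR2F2*, 23.8% and 3.08% for *NPPA* and 25.9% and 0.0425% for *NR2F1*. *NPPA* was detected in 13.6% (12.4% to 14.8%) and 1.46% (1.18% to 1.78%) of muscle cells, against 0.424% and 0.189% of collagen-rich cells. *NR2F1* was detected in 12.4% (11.2% to 13.6%) and 0.0153% (0.000389% to 0.0855%), against 1.48% and 0.331%. *NPPA* and *NR2F1* were thus found in a minority of muscle cells with PD173074. The richest 5% of those cells held 59.2% of *NPPA* UMIs and 41.8% of *NR2F1* UMIs.

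**Figure D4:**
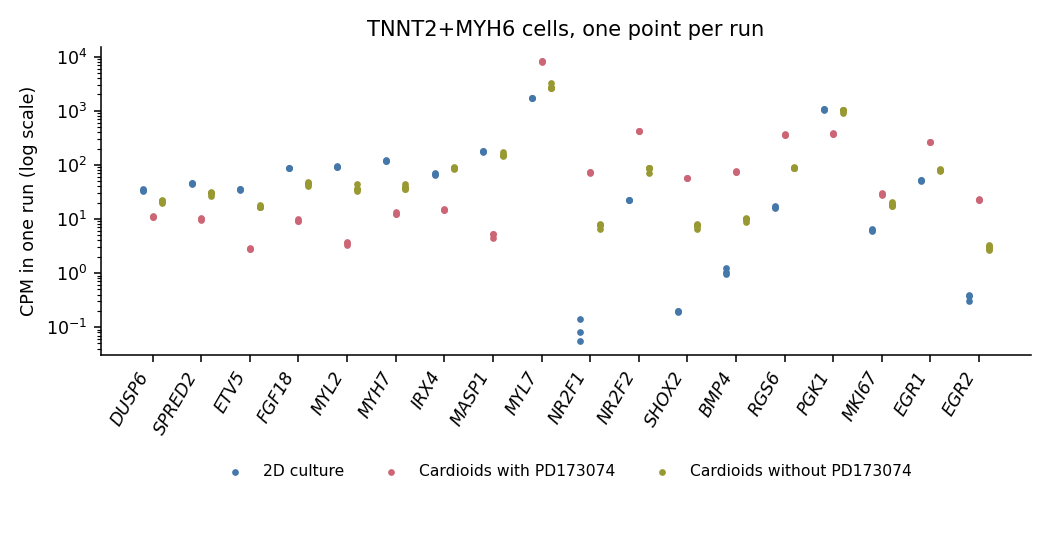
Level in TNNT2+MYH6 cells (vertical axis, CPM, log scale) of 18 genes (horizontal axis) in each run of the 2D culture, the cardioids with PD173074 and the cardioids without it, 1 point per run. Runs of a group nearly overlap, except for NR2F1 in 2D culture, which rests on a mean of 3.33 UMIs.

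Genes of the sinus node and conduction tissue were mostly higher with PD173074. Of 17 measured of 21, 13 were higher and 1 lower, with a median log2 ratio of 1.98. *ISL1*, a factor of pacemaker cells and progenitors, had 18.8 against 0.798 CPM (log2 ratio 4.56, 95% interval 4.02 to 5.16). *BMP4*, a ligand, had 75.4 against 1.08 CPM (log2 ratio 6.13, 95% interval 5.67 to 6.63). *RGS6* and *GNAO1*, which shape the slowing of the heart by the vagus nerve, had 362 against 16.7 and 52.2 against 2.97 CPM. *CACNA1D*, a calcium channel of pacemaker cells, had 1531 against 327 CPM, and *HCN4*, the pacemaker channel, 125 against 69.3 CPM. *TBX18* had 10.6 against 2.22 CPM. Against these, *TBX3*, the repressor that keeps working muscle genes off in the node, had 61.9 against 89.6 CPM, with an interval not beyond 1.5-fold, and 262 CPM in cardioids without PD173074. The 1 lower member was *TBX2*, at 50.1 against 85.5 CPM, named after its value was seen.

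The node genes were not spread evenly. *SHOX2* was detected in 7.24% (6.37% to 8.22%) of thinned muscle cells with PD173074 and 0.0204% in 2D culture, against 2.75% and 0.0946% of collagen-rich cells. The richest 5% of muscle cells with PD173074 held 68.1% of its UMIs, while for *RGS6* they held 34.0%. The unthinned shares were 13.8% and 0.0802% for *SHOX2* and 48.9% and 25.8% for *HCN4*. *HCN4* was detected in 22.6% (21.2% to 24.1%) and 11.8% (11.1% to 12.7%) of muscle cells, against 0.953% and 0.804% of collagen-rich cells.

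Among genes of the contractile apparatus, the atrial light chains were higher and ventricular isoforms lower. Of 11 measured isoforms of 13, 3 (*MYH6*, *MYL4* and *MYL7*) were higher and 3 (*MYH7*, *MYL2* and *MYL3*) lower. The level of *MYH6* is in part set by the cut, so it is no support for a difference. *TNNI1*, the fetal troponin I, had 2899 against 2804 CPM and *TNNI3*, the adult one, 63.1 against 63.3 CPM, a log2 ratio of -0.00 (95% interval -0.10 to 0.09). *TNNC1* (919 against 769.6 CPM) and *MYH7B* (17.6 against 18.9 CPM) were also not beyond 1.5-fold. Among 24 measured sarcomere genes 4 were higher and 3 lower. *DES*, the muscle intermediate filament, had 84.4 against 15.8 CPM, and *LDB3*, *MYPN* and *ACTN2*, proteins of the Z-disc, had 326 against 150.0, 24.6 against 11.5 and 403 against 231 CPM. *ACTA1*, skeletal actin, was lower, at 61 against 175 CPM.

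Genes of excitation and calcium release differed in part. *ATP2A2*, the pump that refills the sarcoplasmic reticulum, had 907 against 371 CPM, and *PLN*, its inhibitor phospholamban, 405 against 770.4 CPM (log2 ratios 1.29 and -0.93). *RYR2*, the release channel, had 1859 against 1503 CPM, not beyond 1.5-fold. Over the 17 measured genes of calcium handling 2 were higher and 2 lower, close to the background shares, and the median log2 ratio was -0.06. Of 16 measured channel and junction genes 4 were higher and 3 lower. *FGF12*, an intracellular FGF homologue that binds sodium channels and does not signal through receptors, had 164 against 13 CPM (log2 ratio 3.65, 95% interval 3.51 to 3.79), and 78.8% of its UMIs with PD173074 lay in the richest 5% of cells. *CACNA1C*, the main calcium channel of heart muscle, had 1020.5 against 377 CPM, and *ATP1B1*, a sodium pump subunit, 305 against 1123 CPM.

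Heart transcription factors were more often higher, 11 of 21 measured, with 1 lower. The list shares members with others, such as *HAND1* with the ventricular one and *ISL1* with the pacemaker one. *TBX20* had 721 against 199 CPM and *HAND2* 230.2 against 132 CPM. *GATA4*, an early heart factor, had 391 against 295 CPM, not beyond 1.5-fold. The lower one was *NKX2-5*, a core factor of working muscle that the sinus node lacks, at 488 against 810.3 CPM. Among 11 measured natriuretic and stretch genes, 6 were lower and 2 higher. *NPPB*, the natriuretic peptide raised by wall stress, had 0.179 against 13.7 CPM (log2 ratio -6.25, 95% interval -8.04 to -4.93), in the opposite direction to *NPPA*. *ANKRD1*, a stretch-responsive gene, had 18.4 against 44.6 CPM, with 16.7 CPM in cardioids without PD173074, and *CCN1*, a matrix signal induced by mechanical load, 158 against 25.6 CPM.

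Glycolysis and hypoxia genes were lower with PD173074. Of 22 measured glycolysis genes 13 were lower and 1 higher, with a median log2 ratio of -0.64. *PGK1* and *ENO1*, enzymes of the pathway's energy-yielding steps, had 378 against 1055 and 923 against 2317 CPM. *LDHA*, which turns pyruvate to lactate, had 696 against 1617 CPM, and *ENO3*, the muscle enolase, 54.6 against 192 CPM. *ALDOC*, an aldolase, was the one that was higher, at 94.7 against 38.6 CPM. In cardioids without PD173074 *PGK1* stood at 1015, *ENO1* at 2506 and *LDHA* at 1839 CPM, close to or above the 2D culture. In collagen-rich cells *PGK1* had 349.6 against 420.1 CPM, a log2 ratio of -0.26, while *ALDOC* was higher there too, at 17.8 against 8.8 CPM. Over all cells under the cut, 3 of 21 measured glycolysis genes were higher and 3 lower, with a median log2 ratio of -0.34. Of 20 measured hypoxia genes 4 were higher and 2 lower there. Among all genes under the cut, 13.1% were higher and 8.75% lower. The lower levels of the muscle cells were thus not seen there as lists.

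Of 20 measured hypoxia genes 10 were lower and 2 higher. *BNIP3*, a mitophagy receptor, had 294 against 738 CPM, *EGLN3*, an oxygen sensor, 35.4 against 94.2 CPM and *FAM162A* 452 against 1119.5 CPM, while *ADM*, the vessel-widening peptide adrenomedullin, was higher at 40.7 against 10.6 CPM. The respiratory chain differed less. Of 39 measured nuclear genes 3 were lower and 0 higher, with a median of -0.24, and *ATP5MC1*, a rotor subunit of ATP synthase, had 235 against 457 CPM. Of the 13 genes encoded in mitochondria 2 were lower and 1 higher. Fatty acid genes stood near the background, 2 lower and 1 higher of 22, with *CD36*, the fatty acid transporter, at 24.6 against 3.09 CPM. *MB*, myoglobin, had 164 against 523 CPM, *CKMT2*, a mitochondrial creatine kinase, 14.4 against 39.2 CPM and *PYGM*, muscle glycogen phosphorylase, 5.09 against 19.3 CPM, in a list with 4 of 8 measured members lower. Of 23 cholesterol synthesis genes 2 were lower and 0 higher.

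Cell division genes were higher with PD173074 but present in few cells. Of 32 measured of 35, 24 were higher and 0 lower, with a median log2 ratio of 1.15. *MKI67*, a mark of dividing cells, had 29 against 6.3 CPM and 18.6 CPM in cardioids without PD173074 (log2 ratio 2.20, 95% interval 1.98 to 2.42). *TOP2A*, which untangles DNA, had 53.6 against 18.7 CPM. *NUSAP1*, *KIF23* and *KIF20A*, proteins of the spindle and of the last step of division, had 33.3 against 9.61, 21.2 against 5.76 and 10.5 against 2.6 CPM. *CCND2*, a D-type cyclin, had 229 against 117 CPM, opposite in direction to *CCND1*. *MKI67* was detected in 2.68% (2.14% to 3.31%) of thinned muscle cells with PD173074 and 0.875% (0.663% to 1.13%) in 2D culture. In collagen-rich cells, which may divide as well, the shares were 2.97% and 0.993%. Unthinned, *MKI67* was found in 5.08% and 1.8% of muscle cells. At least 3 UMIs of the list were found in 9.95% and 7.5% of thinned muscle cells (25.8% and 17.6% unthinned).

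Promoters of this list are shown because most of its measured members were higher and many division genes are known to share CCAAT boxes and the element TTTGAA. Both were searched on both strands in the same windows, and they do not overlap in the stretches shown. CCAAT was found in 23 of 29 matched members (79.3%) and in 35.7% of all promoters, and TTTGAA in 15 of 29 (51.7%) and 15.4% of all. The 120 bases before the start of *CCNB1* (chr5:69167030-69167149, plus strand), *CCNB2* (chr15:59105026-59105145, plus strand) and *TOP2A* (chr17:40417897-40418016, minus strand) are given from RefSeq, GRCh38.p14, with both elements in capitals.
CCNB1: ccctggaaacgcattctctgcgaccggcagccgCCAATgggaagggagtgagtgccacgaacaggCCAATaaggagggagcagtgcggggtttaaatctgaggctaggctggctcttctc
CCNB2: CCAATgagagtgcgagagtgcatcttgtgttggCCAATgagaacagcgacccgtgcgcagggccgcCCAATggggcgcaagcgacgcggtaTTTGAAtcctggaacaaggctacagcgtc
TOP2A: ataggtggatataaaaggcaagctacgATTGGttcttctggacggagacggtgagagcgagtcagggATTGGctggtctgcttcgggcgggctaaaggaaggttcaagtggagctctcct
*CCNB1* and *CCNB2* encode the B-type cyclins of mitosis and were chosen for display after their values were seen, at 26.1 against 12 and 20.6 against 8.89 CPM. ATTGG in capitals is the same box read from the other strand.

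Immediate early genes, switched on within minutes of a stimulus, were higher with PD173074. In *TNNT2*+*MYH6* cells 16 of 26 measured members were higher and 0 lower, with a median log2 ratio of 1.05. *EGR1*, a zinc finger factor, had 265 against 52.6 CPM (log2 ratio 2.33, 95% interval 2.26 to 2.41), and *EGR2* and *EGR3* had 22.5 against 0.362 and 22.6 against 2.01 CPM. *NR4A1* and *NR4A3*, nuclear receptors, had 98 against 14.4 and 87.8 against 1.94 CPM. *FOS* had 431 against 139.8 CPM, and in collagen-rich cells 2228 against 165 CPM. *EGR1* was detected in 30.6% (29.0% to 32.3%) of thinned muscle cells with PD173074 and 8.35% (7.69% to 9.05%) in 2D culture, and in 52.0% and 18.1% of collagen-rich cells, with 51.7% and 19.1% of muscle cells unthinned. At least 3 UMIs of the whole list were found in 65.2% and 65.0% of thinned muscle cells (85% and 86% unthinned) and in 97.7% and 78.4% of collagen-rich cells. Thinned to 1000 UMIs, the muscle shares were 38.1% (36.5% to 39.8%) and 26.4% (25.4% to 27.5%). The near equality of the muscle shares, seen at 2000 UMIs and unthinned, was thus not seen at 1000 UMIs. These genes are known to respond to cell dissociation as well as to ERK.

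The promoter of *EGR1* is shown because it was the 1 of 26 matched members of 29 with a CArG box in the window, and it holds a pair of them (chr5:138465359-138465478, plus strand, RefSeq GRCh38.p14, CArG boxes in capitals).
EGR1: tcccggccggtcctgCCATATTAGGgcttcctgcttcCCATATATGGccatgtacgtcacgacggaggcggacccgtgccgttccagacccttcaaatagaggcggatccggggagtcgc
Among the genes of this list that were highest, *EGR2*, *NR4A3* and *NR4A1* had no match to that pattern between 250 bases before and 50 bases after their starts.

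Secreted signals and their antagonists differed one by one. In the BMP pathway *BMP2* had 98 against 380.0 CPM and its target *ID4* 215 against 866 CPM, both lower, and *NOG*, which binds BMPs, had 2.81 against 10.2 CPM, while *BMP4* was higher as given above. The list of 19 measured members held 5 lower and 1 higher. In the Wnt pathway *RSPO3*, an enhancer of Wnt signals, had 119 against 737 CPM (log2 ratio -2.63, 95% interval -2.69 to -2.57), with 1035 CPM in cardioids without PD173074, and *SFRP5*, an antagonist, had 24.6 against 0.863 CPM. Of 17 measured Wnt members 7 were higher and 3 lower. In the Notch pathway 4 of 7 were higher, *HEY1* (21 against 2.34 CPM), *HES1* (29.9 against 13.4 CPM) and *HES4* (29.2 against 16.8 CPM), which are targets, and *JAG1* (69.6 against 24.3 CPM), a ligand. In retinoic acid handling *ALDH1A2*, the main embryonic synthesis enzyme, was lower (6.2 against 28.8 CPM) while *DHRS3* (12.1 against 2.38 CPM) and *CRABP1* (32.3 against 1.01 CPM) were higher. *CRABP1* in muscle cells stood at 5.18% of its level under the cut with PD173074.

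Matrix, neuronal and autonomic genes differed in both directions. *VCAN*, a proteoglycan of the cardiac jelly, had 425 against 2309 CPM and *ELN*, elastin, 1.93 against 18.9 CPM, while *TNC* (10.5 against 2.24 CPM) and *COL6A3* (17.3 against 3.17 CPM) were higher, in a list with 11 higher and 4 lower of 29. *COL1A1* had 73.5 against 146 CPM (log2 ratio -0.99), but its ratio became 0.38 at the cut of 0.30% and 0.03 with collagen-rich and epithelial-marker cells left out. Of 18 neuronal genes 9 were lower and 7 higher, with *ALK*, a receptor kinase, at 9.76 against 100.3 CPM and *OPCML*, an adhesion protein, at 198 against 13.2 CPM. Of 14 measured autonomic genes 6 were higher and 1 lower. *CHRM3*, a muscarinic receptor, had 12.5 against 3.34 CPM and *RGS4*, a brake on G protein signals, 1.93 against 17.7 CPM. The smooth muscle markers *MYH11* (30 against 4.62 CPM) and *ACTA2* (2137 against 851 CPM), the latter also made by young heart muscle, were higher in *TNNT2*+*MYH6* cells, with 3 of 5 of that list higher and 0 lower. The richest 5% of these cells with PD173074, 169 cells, held 97.1% of 726 *MYH11* UMIs. In 2D culture the richest 354 cells held 100% of 166 UMIs, a count too low for that share to show how the RNA was spread. No member of the 9 measured interferon genes was beyond 1.5-fold, and of 16 stress response genes 2 were higher and 2 lower.

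Cells with epithelial markers were found under the cut in the cardioids and were almost missing from the 2D culture. With PD173074, 509 of 4597 cells (11.1%, 10.2% to 12%) lay under the cut and had epithelial markers at 0.2% or more of UMIs, against 1 of 8183 (0.0122%, 0.000309% to 0.0681%) in 2D culture. Collagen-rich cells, with *COL1A1*, *COL1A2*, *COL3A1* and *COL2A1* at 0.5% or more of UMIs, made up 6.94% (6.22% to 7.71%) with PD173074 and 8.74% (8.13% to 9.37%) in 2D culture. Cells with neither were 9.51% and 4.89%, and 33 cells with PD173074 met both limits. In cardioids without PD173074 the epithelial share was 3.65%, so such cells were present there too. Both limits are cuts on a score, not cell types, and the epithelial one was set after the data were seen.

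**Figure D5:**
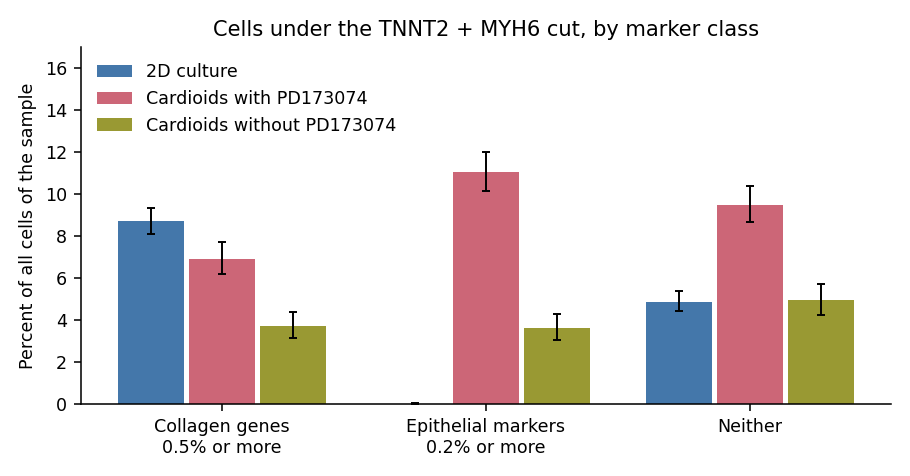
Cells under the TNNT2+MYH6 cut by marker class (horizontal axis) as a percent of all cells of the sample (vertical axis), for the 3 groups, with 95% Clopper-Pearson intervals for counting error. Cells with epithelial markers make up 11.1% with PD173074, 3.65% without it and 0.0122% in 2D culture.

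Among the cells under the cut, 13.1% of 10510 genes at 10 CPM were beyond 1.5-fold higher with PD173074 and 8.75% lower. Collagen-rich cells made up 25.9% of the cells under the cut with PD173074 and 64.1% in 2D culture. Make-up and RNA per cell therefore cannot be told apart in levels under the cut. All 7 epithelial markers were higher, including *KRT19*, a keratin named after its value was seen (1652 against 20 CPM), *EPCAM*, an adhesion molecule (238 against 15 CPM), and *CDH1*, E-cadherin (55.2 against 0.151 CPM). All 5 measured of 7 endoderm markers were higher, among them *TTR* (98 against 4.39 CPM) and *FABP1* (91.6 against 1.1 CPM). Few cells carried them: 87.3% of cells under the cut with PD173074 and 76.7% in 2D culture had no UMI of the list, and over all cells its median log2 ratio of 3.59 turned to -1.10 with cells over 3 times the median UMIs left out. Of 7 cartilage markers 4 were lower and 0 higher, with *COL2A1* at 31.7 against 63.3 CPM and *MATN4* at 33.8 against 87.6 CPM. In collagen-rich cells alone, *COL2A1* was lower (20.5 against 50.8 CPM) and *ACAN* higher (43.9 against 19.1 CPM). *MATN4* had 64.2 against 66.5 and *SOX9* 89.5 against 82.2 CPM in those cells. Over all cells under the cut, 3 of 8 stromal markers were lower and *TCF21* and *POSTN* higher. The lower ones were *COL1A1* (988 against 7302 CPM), *COL1A2* (908 against 6991 CPM) and *PDGFRA* (45.2 against 98.6 CPM). The smooth muscle gene *TAGLN* had 154 against 2245 CPM there. Of 3 measured endothelial markers 1 was higher and 1 lower: *PECAM1* had 14.2 CPM with PD173074 and 0 UMIs in 2D culture, and *KDR*, a growth factor receptor, 12.5 against 29.6 CPM.

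Over all cells, 429 of 8087 genes at 20 CPM (5.3%) were called higher with PD173074 and 215 (2.66%) lower. More RNA per cell and more cells of a type cannot be told apart in these sums. Each of the 10 highest was at or near 0 in 2D culture. *SFRP2* had 383 CPM and 0 UMIs in 2D culture. At the floor of 3 counts its log2 ratio was 12.48, and its 95% interval began at 12.18. *GABRP* had 265 against 0.0521 CPM (log2 ratio 12.31, 95% interval 10.58 to 15.03), *GRHL2*, an epithelial transcription factor, 61 against 0.0819 CPM, and *WNT6*, a Wnt ligand, 47.7 against 0.0149 CPM (log2 ratio 11.64, 95% interval 8.74 to 19.26). *VTCN1* had 66.6 CPM and 0 UMIs in 2D culture. The other five, *TCIM*, *CDH1*, *PHGR1*, *GNRH2* and *P2RY6*, ran from 20.1 to 239 CPM with PD173074.

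The lowest genes over all cells joined ventricular genes to genes of stromal matrix. *MYL2* had 2.76 against 88.2 CPM, *MYH7* 8.47 against 110.0 CPM and *MASP1* 4.6 against 149 CPM. *LOX*, which crosslinks collagen, had 7.03 against 90.5 CPM, *COL8A1* 7.99 against 123 CPM and *ITGA11*, a collagen receptor of fibroblasts, 1.17 against 33.3 CPM. *MAP3K7CL* had 0.264 against 22 CPM (log2 ratio -6.38, 95% interval -7.47 to -5.48), and *PTX3*, a secreted pattern recognition protein, 1.55 against 23.9 CPM. Of 10846 genes at 10 CPM over all cells 9.7% were beyond 1.5-fold higher and 6.31% lower. Read against that, 26 of 29 immediate early genes were higher, with a median log2 ratio of 1.96, and *FOS* had 1305 against 145 CPM. The FGF feedback list held 5 lower and 1 higher of 11, with a median of -0.34, nearer 0 than in the muscle cells, and the ventricular list 15 lower and 2 higher of 18. *AFP*, alpha-fetoprotein of early endoderm, had 13 against 3.45 CPM over all cells, and its log2 ratio of 1.92 turned to -0.56 with cells over 3 times the median UMIs left out.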

How the data were processed

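Members and gene lists were chosen with earlier results of these data known. The authors deposited filtered matrices of UMI counts per gene and cell barcode, and both the file headers and the submitters' processing notes name Cell Ranger 7.0.0, the notes also hg38. Libraries were made with 10x 3′ chemistry, version 2 or 3 (not given per library), after dissociation with a cardiomyocyte kit, per the labels' protocols. From these deposited counts, means over runs were formed for barcodes found in every run (8558 in 2D culture, 4895 with PD173074). Cells with at least 1000 UMIs, 500 genes and at most 30% mitochondrial UMIs were kept. No doublet caller was run, and leaving out deep cells was tried instead. CPM (a gene's summed counts scaled to 1e6 per sample) were computed here from the deposited counts. A gene at 0 was set to a floor of 3 counts over the sample for its ratio.

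Each group was 1 sample, so no test was made. The text names, for each cell set, the 10 highest and lowest called genes, up to 4 members of each list with the largest ratios, fixed genes, and all members of 5 short lists: FGF feedback, FGF ligands and receptors, atrial, ventricular and isoforms. A few genes that this rule names are not reported here. Other names are said to be chosen after their values were seen. Members shown as not passing, and markers, come from the lists. Thinning to 2000 UMIs left out shallower cells. Promoters came from RefSeq (GRCh38.p14). The script was tested on simulated data. Tools were Python 3.11.15, numpy 2.4.6, scipy 1.17.1, pandas 2.3.3 and matplotlib 3.10.9. Cell filters, cuts, scalings, floors, folds and single runs were varied.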

Additional observations from a re-analysis of the deposited data

How the results depend on the processing

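No paired analysis was possible because each group was 1 sample and no result came from a test. With each run left out in turn, called genes ranged from 426 to 430 higher and 213 to 218 lower over all cells, and from 397 to 405 and 209 to 214 in *TNNT2*+*MYH6* cells. The share of such cells ranged from 85.9% to 86.4% in 2D culture and 73.0% to 73.3% with PD173074, and their difference from -13.4 to -12.7 points.

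The 2D share was 85.4% with no cell filter, 87.9% without cells over 3 times the median UMIs, 89.9% at a cut of 0.10%, 61.2% at 0.30% and 79.8% with *TNNT2* alone. With PD173074 it was 75.3%, 63.7% and 67.8% at these 3 cuts, so the difference turned to 2.57 points at 0.30% and lay between -14.5 and -11.8 elsewhere. Counts of called genes followed the floor and fold by construction. Over all cells, higher and lower, they were 863 and 348 at 5 CPM, 226 and 142 at 50 CPM, 1854 and 529 with no floor, 737 and 525 at 1.5-fold, and 189 and 52 at 4-fold. In *TNNT2*+*MYH6* cells they were 682 and 370, 247 and 131, 1171 and 535, 708 and 521, and 136 and 54. Over the other alternatives they ran from 383 to 417 higher and 207 to 238 lower in those cells, including without collagen-rich or epithelial-marker cells (400 and 220, an alternative added after seeing the data).

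Of the named genes, *COL1A1* turned to 0.38 in *TNNT2*+*MYH6* cells at 0.30% and to 0.026 without collagen-rich or epithelial-marker cells, and *AFP* over all cells to -0.56 without deep cells, where the endoderm median also turned to -1.10. Of 499 values compared, 208 shifted beyond their counting interval (list medians, by 0.1 or more) with each cell weighted equally, which kept 348 of the 429 higher calls over all cells, and 131 did so without deep cells. Of 79 list medians, 70 kept their sign under each alternative run. The cause of these turns was not tested. Depth limits genes near 0 in 2D culture, such as *NR2F1*, whose fold rests on few UMIs.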
